A study of Homo sapiens with 8 samples.

Results

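The comparison described here is that of NCI-H929 cells carrying a short hairpin construct against SIRT6 (shSIRT6) with NCI-H929 cells carrying a scramble construct. It comprised 4 of the 8 arrays of the study, 2 per construct, selected by the cell line and construct in the sample titles. The other 4 arrays are the same pair of constructs in MM1.S. Both are established human multiple myeloma lines, that is, malignant plasma cells grown in culture. NCI-H929 carries the translocation that drives FGFR3 and NSD2, and MM1.S one that drives MAF. Total RNA was hybridised to Human Gene 2.0 ST arrays. The labels give no hairpin sequence, no time after transduction and no second hairpin, so a single construct stands for the loss of SIRT6. RNA was taken in duplicate, and whether duplicates were independent cultures is not stated, so a p-value here reflects array-to-array spread that could be purely technical. The arrays read RNA of whole cultures, in which fewer cells of a kind and less RNA per cell cannot be told apart. Of 14884 genes with a named row, 12734 were above a mean log2 level of 3.045 and were tested.

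SIRT6 is an enzyme that uses NAD to remove acetyl groups from histone H3 and other proteins. It is known for restraining transcription at many promoters and for its part in DNA repair and glucose metabolism. Plasma cells make antibody at a high rate and are known to depend on stress pathways that match protein synthesis to the supply of amino acids and to the folding capacity of the endoplasmic reticulum. A transcription factor central to these pathways is ATF4. Its targets include DDIT3 (the factor CHOP), TRIB3 (a pseudokinase), and SESN2 and DDIT4, which both restrain the growth kinase mTORC1.

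The labels were first checked against the target and the markers of the line. The SIRT6 row read log2 levels of 6.53 and 6.97 in the scramble arrays and 6.25 and 6.31 in the shSIRT6 arrays. Both shSIRT6 arrays lay below both scramble arrays, but the scramble arrays lay further apart than the gap between the groups. The log2 difference of −0.47 ± 0.16 (SE, n = 2 per group) did not pass the test (limma, Benjamini-Hochberg adjusted p = 0.276). Without scramble replicate 2 it was −0.25, and without scramble replicate 1 it was −0.69. These arrays thus gave no significant reading of the knockdown, and its size depended on a single scramble array. The scramble arrays of NCI-H929 had high mean log2 levels of the plasma cell genes IRF4 (11.65), XBP1 (11.68), MZB1 (10.97), SLAMF7 (10.06), CD38 (9.20) and SDC1 (8.68). POU2AF1, another marker of the same check, was not high. It stood at 5.42, below the median of the genes tested on these arrays (5.56). FGFR3 stood at 6.68 and NSD2 at 9.22, against 4.64 and 7.85 in the MM1.S scramble arrays, and MAF at 8.26 against 9.71. These orders go with the line labels. The summed log2 level of 13 T and NK cell marker rows stood at 61.78 and 61.96 in the scramble arrays and at 64.96 and 64.95 in the shSIRT6 arrays, and that of 11 myeloid marker rows ran from 45.34 to 46.45. Their part in the results below was not tested.

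Log2 differences moved with expression level over the whole array. Among the 12734 genes, sorted by mean level into 10 bins of equal size, the median log2 difference (shSIRT6 minus scramble, deposited values) was 0.07 in bin 2 and −0.12 in bin 7, a span of 0.19. The same span was 0.03 between the 2 scramble arrays and 0.07 between the 2 shSIRT6 arrays. In MM1.S it was 0.175. The shift with level was thus wider between constructs than between replicate arrays. It bears on any group of strongly expressed genes. Results are therefore given on 2 scales, for single genes mostly on the second: the deposited log2 values, and level-adjusted values, in which cyclic loess had removed smooth trends between arrays. After adjustment the span was 0.0698, and the median of all genes tested moved from −0.05 to −0.02.

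**Figure D1:**
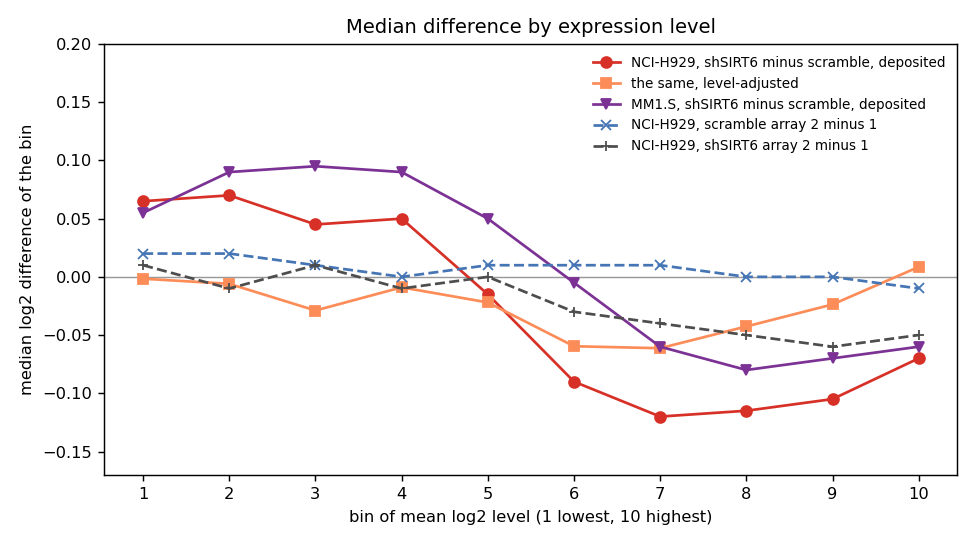
Median log2 difference in each of 10 bins of mean log2 level (x axis, lowest to highest) for the 12734 genes tested. Solid lines give shSIRT6 minus scramble in NCI-H929 (deposited and level-adjusted) and in MM1.S, and dashed lines the difference between the 2 replicate arrays of a construct in NCI-H929. The deposited NCI-H929 line runs from 0.07 in bin 2 to −0.12 in bin 7, while the line of the 2 scramble arrays stays within a span of 0.03.

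The named genes that passed numbered 3, at a Benjamini-Hochberg adjusted p below 0.05: DDIT3 and SESN2 rose and CCND2 fell. They were 0.0236% of the 12734 genes tested, with 0.0157% higher and 0.00785% lower. With any 1 of the 4 NCI-H929 arrays left out, none (0) passed. After level adjustment none (0) passed in limma's test, and 1553 (12.2%) had an unadjusted p below 0.05. The adjusted p of the 3 genes moved from 0.0484 to 0.0577, while their differences moved by less than 0.1. At an adjusted p below 0.1 the level-adjusted fit held 7 genes, 0.0550% of those tested: DDIT3, SESN2, CCND2, TRIB3, TMEM169, DDIT4 and EGR1. When the prior variance was allowed to follow the expression level (eBayes with trend), 194 genes passed on the deposited values (1.52%), 22 higher (0.173%) and 172 lower (1.35%). After level adjustment 68 did (0.534%), 25 higher (0.196%) and 43 lower (0.338%). The calls of single genes therefore depend on how the variance is modelled with 2 arrays per group.

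DDIT3, the stress-induced factor CHOP, read 5.23 and 5.14 with scramble and 6.43 and 6.53 with shSIRT6. The groups lay more than 1 log2 unit apart, and each pair of arrays differed by 0.10 or less. Its log2 difference was 1.30 ± 0.12 (SE; limma, adjusted p = 0.0484), and 1.33 ± 0.12 after level adjustment. SESN2, a leucine sensor that restrains mTORC1, read 7.81 and 7.67 with scramble and 8.71 and 8.83 with shSIRT6. It rose by 1.03 ± 0.10 (SE; limma, adjusted p = 0.0484). Cyclin D2, encoded by CCND2 and one of the D cyclins that carry myeloma cells out of G1, read 7.89 and 7.84 with scramble and 6.86 and 6.71 with shSIRT6. It fell by 1.08 ± 0.10 (SE; limma, adjusted p = 0.0484). A second, dimmer row of CCND2 read 4.81 and 4.68 with scramble and 4.48 and 4.61 with shSIRT6, a difference of −0.20, so the rows of this gene differ in size. With the mean of both rows the log2 difference of CCND2 was −0.64.

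**Figure D2:**
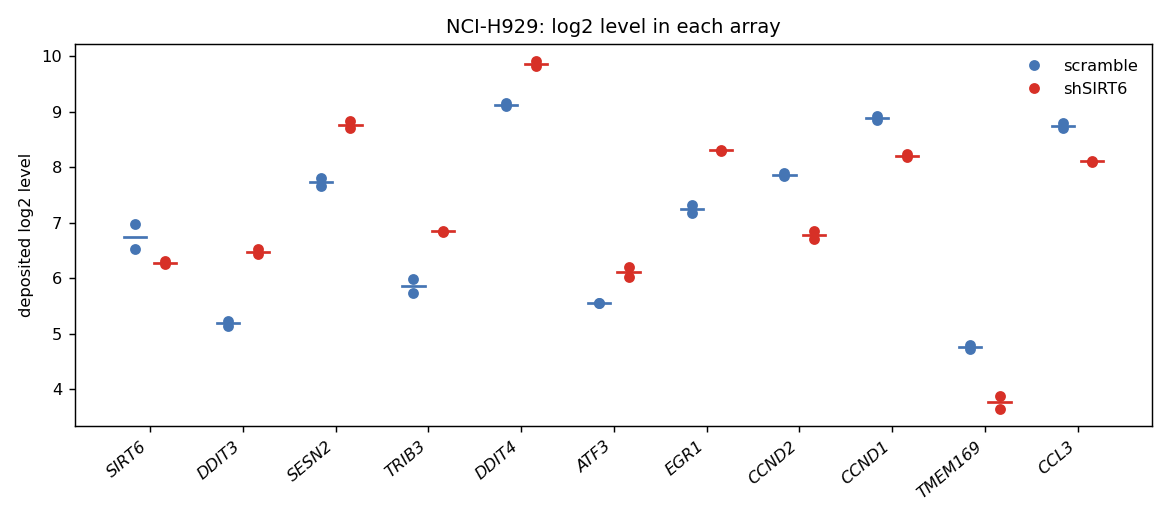
Deposited log2 level (y axis) in each of the 2 scramble and 2 shSIRT6 arrays of NCI-H929 for SIRT6 and 10 genes described in the text. Points are arrays and short lines the mean of 2. The 2 groups do not overlap in any gene shown; DDIT3, SESN2 and CCND2 passed the test on the deposited values and the others did not.

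Other stress regulators of the ATF4 program had high values as well. Of 16 listed genes 10 were tested; 7 were higher and 3 lower after level adjustment, against 44.6% and 55.4% of all genes tested. The median log2 difference was 0.39 on both scales, beside −0.05 (deposited) and −0.02 (level-adjusted) over all genes. TRIB3, which binds ATF4 and AKT, read 5.73 and 5.99 with scramble and 6.83 and 6.86 with shSIRT6. Its level-adjusted difference was 1.05 ± 0.11 (SE; limma, adjusted p = 0.0655). DDIT4, also called REDD1, an inhibitor of mTORC1, read 9.16 and 9.10 with scramble and 9.91 and 9.82 with shSIRT6, with a level-adjusted difference of 0.82 ± 0.09 (SE; limma, adjusted p = 0.0801). Both passed in the fit with a variance trend, on either scale. ATF3, a stress-induced partner of CHOP, read 5.56 and 5.55 against 6.20 and 6.02, and did not pass in any fit (level-adjusted difference 0.60 ± 0.13).

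The message of ATF4 itself was at 10.05 and 10.10 with scramble and 10.00 and 9.94 with shSIRT6, a level-adjusted difference of −0.03 ± 0.08. That of ATF5 was 0.00 ± 0.12. VLDLR, a lipoprotein receptor induced by the same factor, stood on the other side at −0.38 ± 0.17, and GDF15, a secreted stress marker, at −0.07 ± 0.13. The ATF4 protein is mainly controlled by translation and was not measured. PMAIP1, which encodes the cell death protein NOXA and is another stress-induced gene, read 4.99 and 5.0 with scramble and 5.76 and 5.45 with shSIRT6 (level-adjusted difference 0.64 ± 0.16), and did not pass in any fit.

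The enzymes that the same factor controls showed smaller values. Among 11 tested enzymes of amino acid synthesis the median level-adjusted difference was 0.03, with 8 higher and 3 lower. CTH, of cysteine synthesis, stood at 0.47 ± 0.19 and PCK2, the mitochondrial PEP carboxykinase, at 0.35 ± 0.14. ASNS, asparagine synthetase and a much used readout of amino acid shortage, read 8.61 and 8.65 with scramble and 8.78 and 8.71 with shSIRT6 (0.20 ± 0.09). SHMT1, the cytosolic serine hydroxymethyltransferase, differed the other way, by −0.49 ± 0.10, and passed only on the deposited values with a variance trend. The 17 tested aminoacyl-tRNA synthetases, which load amino acids on tRNA, had a median of −0.01 on the deposited values and 0.07 after level adjustment; 12 were higher and 5 lower on the second scale. None (0) of these 28 enzymes passed in the fit without a variance trend. With a variance trend SHMT1 and VARS1, the valine enzyme, passed on the deposited values, both lower, and none (0) did after level adjustment.

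The hairpin's difference in NCI-H929 was set against that in MM1.S by an interaction term; the lines have separate scramble arrays. In that test 26 genes passed on the deposited values (0.204% of 12734), 25 of them higher in NCI-H929 (0.196%) and 1, CCND2, lower (0.00785%), and 25 passed after level adjustment (0.196%). DDIT3 differed by 1.30 in NCI-H929 and −1.20 in MM1.S, an interaction of 2.49 ± 0.17 (SE; limma, adjusted p = 0.00447). SESN2 gave 2.24 ± 0.14, DDIT4 2.16 ± 0.14 and TRIB3 2.15 ± 0.16, with adjusted p-values of 0.00386, 0.00386 and 0.00497 in limma's test. In these 4 genes the NCI-H929 value was above 0 and the MM1.S value below 0. ASNS passed the interaction test with 1.43 ± 0.13 (SE; limma, adjusted p = 0.017), although most of this came from MM1.S, at −1.31, and only 0.12 from NCI-H929. Of the 10 tested stress regulators 4 passed the interaction test, and of the 11 synthetic enzymes 2 did, on either scale. With the replicate number as a block no gene (0) passed it, and with 1 NCI-H929 array left out 2 to 6 did.

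**Figure D3:**
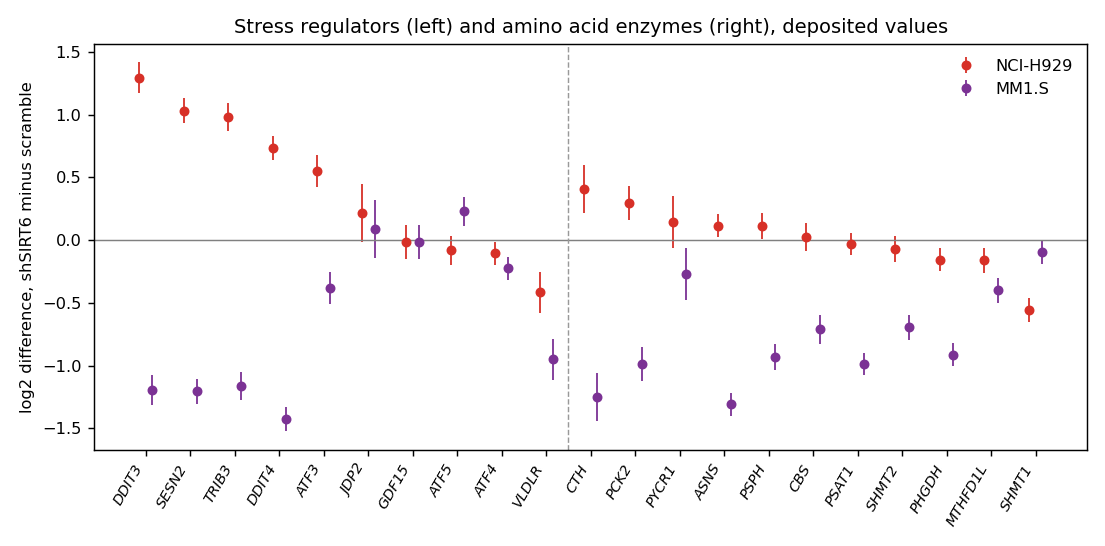
Log2 difference, shSIRT6 minus scramble, on the deposited values (y axis) in NCI-H929 and MM1.S for the 10 tested stress regulators (left of the dashed line) and the 11 tested amino acid enzymes (right). Points are limma estimates with their SE. DDIT3, SESN2, TRIB3 and DDIT4 lie above 0 in NCI-H929 and below 0 in MM1.S, while ASNS lies near 0 in NCI-H929 (0.12) and at −1.31 in MM1.S.

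DNA replication genes were lower together. All 33 tested members of that list, of 60 listed, had a negative log2 difference on both scales, beside 58.1% of all genes on the deposited values and 55.4% after level adjustment. The median level of the list, 8.08, falls in bin 9. In that bin 22.8% of genes were higher on the deposited values and 43.2% after adjustment. The median was −0.34 on the deposited values and −0.26 after level adjustment, against −0.05 and −0.02 over all genes. With the trend with level subtracted from the differences instead, the median was −0.24 and 32 of 33 were negative, against 49.8% of all genes. Both shSIRT6 arrays lay below both scramble arrays for 31 of 33 members after level adjustment, against 26.1% of all genes. No member (0) passed the test over all genes; 16 of 33 were lower at an unadjusted p below 0.05, against 7.84% of all genes. With a variance trend 11 passed on the deposited values and 4 after level adjustment, all lower. Of all genes 1.35% and 0.338% passed lower in the same fits.

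Members with roles in origin firing, nucleotide supply and flap processing serve as examples. GINS2, a subunit of the replicative helicase, read 7.59 and 7.72 with scramble and 6.92 and 6.98 with shSIRT6, a level-adjusted difference of −0.63 ± 0.13. CDC6, which loads the helicase at origins, read 8.69 and 8.76 against 8.25 and 8.17 (−0.43 ± 0.09). TYMS, thymidylate synthase, read 9.78 and 9.75 against 9.30 and 9.25 (−0.41 ± 0.09). These 3 genes and RRM2, the regulated subunit of ribonucleotide reductase (−0.35 ± 0.09), were the ones that passed with a variance trend after level adjustment. DNA2, a nuclease of flap processing, stood at −0.49 ± 0.11 and passed with a variance trend on the deposited values alone. The helicase subunits MCM2 and MCM7 stood at −0.30 and −0.29, each ± 0.09 to 0.10.

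The median member of the list lay 0.16 and 0.11 above its own mean over the 4 arrays in the 2 scramble arrays, and 0.10 and 0.17 below it in the 2 shSIRT6 arrays, on the level-adjusted scale. The 2 arrays of a construct thus stood close to each other, and the groups apart. In MM1.S the median of the same 33 genes was −0.035 on the deposited values and 0.005 after adjustment. The log2 difference was lower in NCI-H929 than in MM1.S for 32 of the 33, but none (0) of these differences passed the interaction test.

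Genes of mitosis and G2/M formed the other broad group. Of 50 tested members, of 64 listed, 50 were lower on the deposited values and 49 after level adjustment, against 58.1% and 55.4% of all genes. The median level of the list, 8.37, falls in bin 9. In that bin 22.8% of genes were higher on the deposited values and 43.2% after adjustment. Their median was −0.28 on the first scale and −0.21 on the second. Both shSIRT6 arrays lay below both scramble arrays in 39 of 50 after adjustment, against 26.1% of all genes, and 21 were lower at an unadjusted p below 0.05, against 7.84%. None (0) passed over all genes. With a variance trend 18 passed on the deposited values and 4 after adjustment (FOXM1, SMC2, SMC4 and MKI67), all lower. Of all genes 1.35% and 0.338% passed lower in the same fits. FOXM1, the transcription factor of this phase of the cycle, read 7.28 and 7.53 with scramble and 6.75 and 6.88 with shSIRT6 (level-adjusted difference −0.51 ± 0.11). ESPL1, the protease separase that cuts cohesin, read 7.05 and 7.01 against 6.56 and 6.43 (−0.46 ± 0.11). SMC2, a core subunit of condensin, read 9.09 and 8.93 against 8.55 and 8.40 (−0.45 ± 0.11). CDC25C, the phosphatase that opens mitosis, and KIF20A, a kinesin of cytokinesis, both stood at −0.37 ± 0.10. MKI67, the proliferation marker, read 10.55 and 10.65 against 10.25 and 10.28 (−0.27 ± 0.09).

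In MM1.S the median of the mitosis list was 0.03, and 47 of 50 members had the lower difference in NCI-H929; none (0) passed the interaction test. Genes outside the lists that passed in NCI-H929 with a variance trend on the level-adjusted values, picked out after their values were seen, included TICRR, which starts replication at licensed origins (−0.54 ± 0.09), PLK4, the kinase of centriole duplication (−0.58 ± 0.14), TRIP13, a checkpoint ATPase (−0.52 ± 0.09), KNL1, a kinetochore scaffold (−0.45 ± 0.11) and MYBL2, a transcription factor that acts with FOXM1 (−0.33 ± 0.10).

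**Figure D4:**
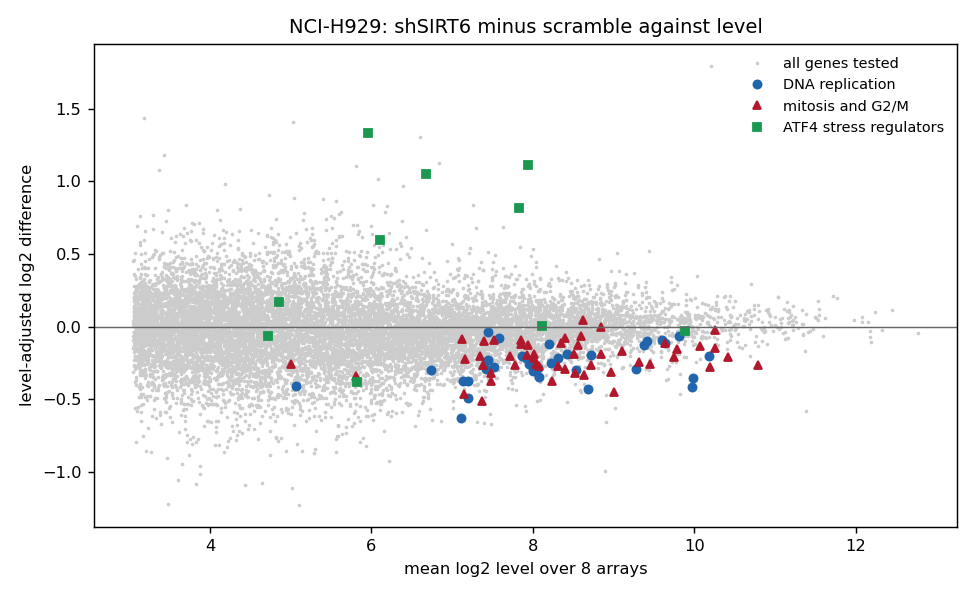
Level-adjusted log2 difference, shSIRT6 minus scramble in NCI-H929 (y axis), against mean log2 level over 8 arrays (x axis) for the 12734 genes tested (grey), with the tested members of 3 lists in colour. All 33 replication genes lie below 0, as do 49 of 50 mitosis genes, and both sets lie mostly at high levels; DDIT3, SESN2, TRIB3, DDIT4 and ATF3 lie above the bulk of genes of their level.

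The promoters of both lists were searched for 2 motifs known to act in the cell cycle. The search took all tested members with a promoter and did not use their differences. Its shares therefore describe the lists and carry no information on the hairpin. The windows were RefSeq promoters of GRCh38.p14, 250 bases before to 50 after the start, available for 26 of 33 replication genes, 42 of 50 mitosis genes and 9530 of all genes tested. An E2F motif (TTCCCGC or TTGGCGC, either strand) was found in 16 of 26 replication promoters (61.5%), against 13.2% of the promoters of all genes tested, 9.33% of all 27305 promoters in the table and 23.8% of the mitosis promoters. The cell cycle genes homology region (TTTGAA or TTTAAA, either strand), which the repressor complex DREAM and the activator complex of MYBL2 and FOXM1 bind, was found in 34 of 42 mitosis promoters (81%). The share was 16.8% for the genes tested, 24.3% for the table and 11.5% for the replication genes. CCAAT, on either strand, was in 71.4% of mitosis and 61.5% of replication promoters, against 36.1%. A match describes the letters of the window and not a bound site. The windows of the 2 lists thus differed in their shares of E2F and homology region matches, while CCAAT was above the share of all genes tested in both. Promoters are shown for 2 genes of each list, among the 3 members with the lowest level-adjusted p whose window holds the motif, with the match in capitals. GINS2 lies at chr16:85688905-85689204 on the minus strand, with the match 31 bases before the start, and CDC6 at chr17:40287629-40287928 on the plus strand, with the match 9 bases after it. ESPL1 lies at chr12:53268049-53268348 and KIF20A at chr5:138178862-138179161, both on the plus strand, with matches that begin 31 and 41 bases before the start.
GINS2: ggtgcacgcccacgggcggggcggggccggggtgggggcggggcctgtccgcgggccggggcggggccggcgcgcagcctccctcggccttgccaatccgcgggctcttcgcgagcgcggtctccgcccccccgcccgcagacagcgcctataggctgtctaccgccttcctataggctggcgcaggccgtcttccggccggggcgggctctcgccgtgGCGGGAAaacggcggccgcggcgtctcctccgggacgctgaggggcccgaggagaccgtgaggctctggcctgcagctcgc
CDC6: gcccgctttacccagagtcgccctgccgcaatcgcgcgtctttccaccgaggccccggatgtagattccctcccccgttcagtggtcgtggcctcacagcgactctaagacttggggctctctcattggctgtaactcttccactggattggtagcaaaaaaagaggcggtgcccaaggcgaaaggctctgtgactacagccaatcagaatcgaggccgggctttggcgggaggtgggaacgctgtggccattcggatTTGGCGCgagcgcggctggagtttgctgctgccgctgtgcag
ESPL1: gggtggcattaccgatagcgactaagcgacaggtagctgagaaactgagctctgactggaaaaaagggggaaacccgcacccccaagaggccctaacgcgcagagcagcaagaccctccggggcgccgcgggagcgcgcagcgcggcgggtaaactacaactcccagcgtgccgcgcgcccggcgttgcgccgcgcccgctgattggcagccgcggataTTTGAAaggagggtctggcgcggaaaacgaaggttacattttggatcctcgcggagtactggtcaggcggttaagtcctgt
KIF20A: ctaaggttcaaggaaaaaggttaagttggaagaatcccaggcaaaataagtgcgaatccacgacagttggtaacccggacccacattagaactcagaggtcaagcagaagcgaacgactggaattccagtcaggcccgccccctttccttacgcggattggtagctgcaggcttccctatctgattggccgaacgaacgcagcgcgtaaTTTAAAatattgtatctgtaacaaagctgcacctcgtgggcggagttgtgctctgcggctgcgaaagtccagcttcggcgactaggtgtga

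The stress regulators were searched for the C/EBP-ATF response element (TGATGNAAN, either strand), to which ATF4 binds with C/EBP partners. It was found in 1 of 10 promoters, that of ATF3, against 1.88% of the promoters of genes tested and 3.67% of the table. DDIT3 and SESN2 held no match, which says only that these letters are not in this window. The ATF3 window lies at chr1:212565157-212565456 on the plus strand, and the match, in capitals, begins 191 bases before the start.
ATF3: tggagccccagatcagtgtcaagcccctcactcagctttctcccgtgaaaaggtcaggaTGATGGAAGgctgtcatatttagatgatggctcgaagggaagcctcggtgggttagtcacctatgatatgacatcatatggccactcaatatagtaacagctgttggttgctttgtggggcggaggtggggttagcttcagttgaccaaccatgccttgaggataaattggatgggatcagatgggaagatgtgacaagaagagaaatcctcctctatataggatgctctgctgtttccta

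D cyclins and the signals above them were read in a list of 11 tested G1 regulators. After level adjustment 9 were lower and 2 higher, with a median of −0.10. Beside CCND2, CCND1 (cyclin D1) read 8.85 and 8.93 with scramble and 8.18 and 8.24 with shSIRT6, a level-adjusted difference of −0.60 ± 0.11, which passed with a variance trend on both scales. CCND3 stood at −0.08 ± 0.12 and CDK6, a partner kinase of the D cyclins, at −0.19 ± 0.09. MYC read 10.52 and 10.58 against 10.47 and 10.41, and its level-adjusted difference was −0.03 ± 0.09. FGFR3, the receptor driven by the translocation of this line, read 6.77 and 6.58 against 6.28 and 6.31 (−0.36 ± 0.13), and its partner NSD2 stood at −0.07 ± 0.09. Neither passed in any fit.

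Immediate-early genes and feedback genes of the ERK pathway split. Of 28 tested, 20 were lower and 8 higher after level adjustment, with a median of −0.14 on both scales. EGR1, an early transcription factor, stood far on the higher side, at 7.17 and 7.32 with scramble and 8.32 and 8.29 with shSIRT6. Its level-adjusted difference was 1.13 ± 0.13 (SE; limma, adjusted p = 0.0891), and a second, dimmer row of it differed by 0.64. The ERK phosphatase DUSP5 read 10.22 and 10.25 against 9.82 and 9.77 (−0.36 ± 0.10). KLF10, a factor induced by TGF-beta, read 8.80 and 8.76 against 8.29 and 8.18 (−0.46 ± 0.09). EGR1, CCND1, KLF10 and DUSP5 passed with a variance trend on both scales. DUSP1 (−0.40 ± 0.11), DUSP4 (−0.34 ± 0.11), JUND (−0.29 ± 0.09) and JUNB (−0.26 ± 0.10) were on the lower side as well, DUSP1 and JUND passing with a variance trend on the deposited values. Of the 8 members on the higher side EGR1 and ATF3 had an unadjusted p below 0.05. On the lower side 8 members did, against 7.84% of all genes. After level adjustment both shSIRT6 arrays lay above both scramble arrays in 4 of 28 members, against 2326 of all 12734 genes. They lay below them in 12, against 26.1% of all genes. DUSP2 and SPRY4, feedback inhibitors of the pathway, had level-adjusted differences of 0.21 and 0.07.

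In the repair of double-strand breaks, a process with which SIRT6 is linked, 24 of 28 tested members were lower after level adjustment, against 55.4% of all genes, with a median of −0.13. At an unadjusted p below 0.05, 6 of 28 were lower, against 7.84%. EME1, a subunit of a nuclease that cuts branched DNA, read 6.16 and 6.39 with scramble and 5.31 and 5.52 with shSIRT6, a level-adjusted difference of −0.82 ± 0.12. A second, dimmer row of EME1 read 5.25 and 5.09 against 5.08 and 5.13, and with the mean of both rows the level-adjusted difference was −0.44. TP53BP1, which channels breaks to end joining, read 6.04 and 5.95 against 5.22 and 5.37 (−0.68 ± 0.12). UBE2T, the ubiquitin-conjugating enzyme of the Fanconi pathway, stood at −0.37 ± 0.09. EME1 and UBE2T passed with a variance trend on both scales, and TP53BP1 on the deposited values. RAD50, of the complex that senses breaks, stood on the other side at 0.20 ± 0.09. Many members of this list are known to be transcribed with the cell cycle, and whether this bears on their differences was not tested. Base excision repair and PARP genes, 19 tested, had a median of −0.06, with 11 lower and 8 higher.

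Cytosolic heat shock chaperones were lower in part. HSPA1A and HSPA1B, near-identical genes of inducible HSP70 whose probes may read either message, read 8.01 and 8.13 against 7.62 and 7.33, and 8.96 and 9.0 against 8.56 and 8.29. Their level-adjusted differences were −0.51 ± 0.11 and −0.47 ± 0.12, and both passed with a variance trend. HSF1, the factor that induces them, read 5.83 and 5.72 against 5.29 and 5.25 (−0.46 ± 0.10), without passing. The list of 12 tested members had a median of −0.17 on the deposited values and −0.09 after level adjustment, with 9 lower. HSPA4 (0.08 ± 0.10) and HSPD1 (0.06 ± 0.10) stood near 0.

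The endoplasmic reticulum branch gave a mixed reading. ERN1, which encodes IRE1, the sensor that splices XBP1, read 9.03 and 8.98 with scramble and 9.39 and 9.50 with shSIRT6; its level-adjusted difference of 0.52 ± 0.09 passed with a variance trend. EIF2AK3, which encodes PERK, the kinase upstream of ATF4 in this branch, stood at 0.26 ± 0.10. XBP1 (0.02 ± 0.10), the lectin chaperone CANX (0.04 ± 0.09) and the stress chaperone HYOU1 (0.08 ± 0.09) stood near 0, and MANF, another stress-induced secretory gene, at −0.17 ± 0.11. Of 19 tested genes 9 were higher and 10 lower after level adjustment, with a median of −0.03, beside −0.02 over all genes.

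The study's title names the spliceosome, and its genes are among those that the trend with level reaches. The 52 tested core spliceosome proteins had a median of −0.11 on the deposited values, with 43 lower, and of −0.035 after level adjustment, with 32 lower, beside 55.4% of all genes. The 44 tested SR proteins and hnRNPs moved from −0.12, with 42 lower, to −0.04, with 32 lower. After level adjustment 3 of 52 and 1 of 44 were lower at an unadjusted p below 0.05, against 7.84% of all genes. SNRPB, a core protein of the small nuclear ribonucleoproteins, was the member with the lowest p and stood at −0.33 ± 0.10, and PCBP2, an RNA-binding protein, at −0.34 ± 0.10; both passed with a variance trend on the deposited values alone. SNRNP70, of the U1 particle, stood at 0.26 ± 0.10.

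Lists of other strongly expressed genes moved in the same manner between the scales. The 45 tested ribosomal protein genes went from −0.14 to −0.07, the 71 mitochondrial ribosomal protein genes from −0.10 to −0.02, and the 38 ribosome biogenesis genes from −0.05 to 0.03, a change of sign. The medians of replication (−0.34 to −0.26) and mitosis (−0.28 to −0.21) moved the same way, and that of the stress regulators was 0.39 on both. All of these stood farther from the median of all genes on both scales than the ribosome lists did. RPS15A, with −0.54 ± 0.13, passed with a variance trend on the deposited values alone. Glycolysis genes, which SIRT6 is known to restrain in other cells, had 4 higher and 5 lower of 9 tested, with a median of −0.06 after adjustment.

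**Figure D5:**
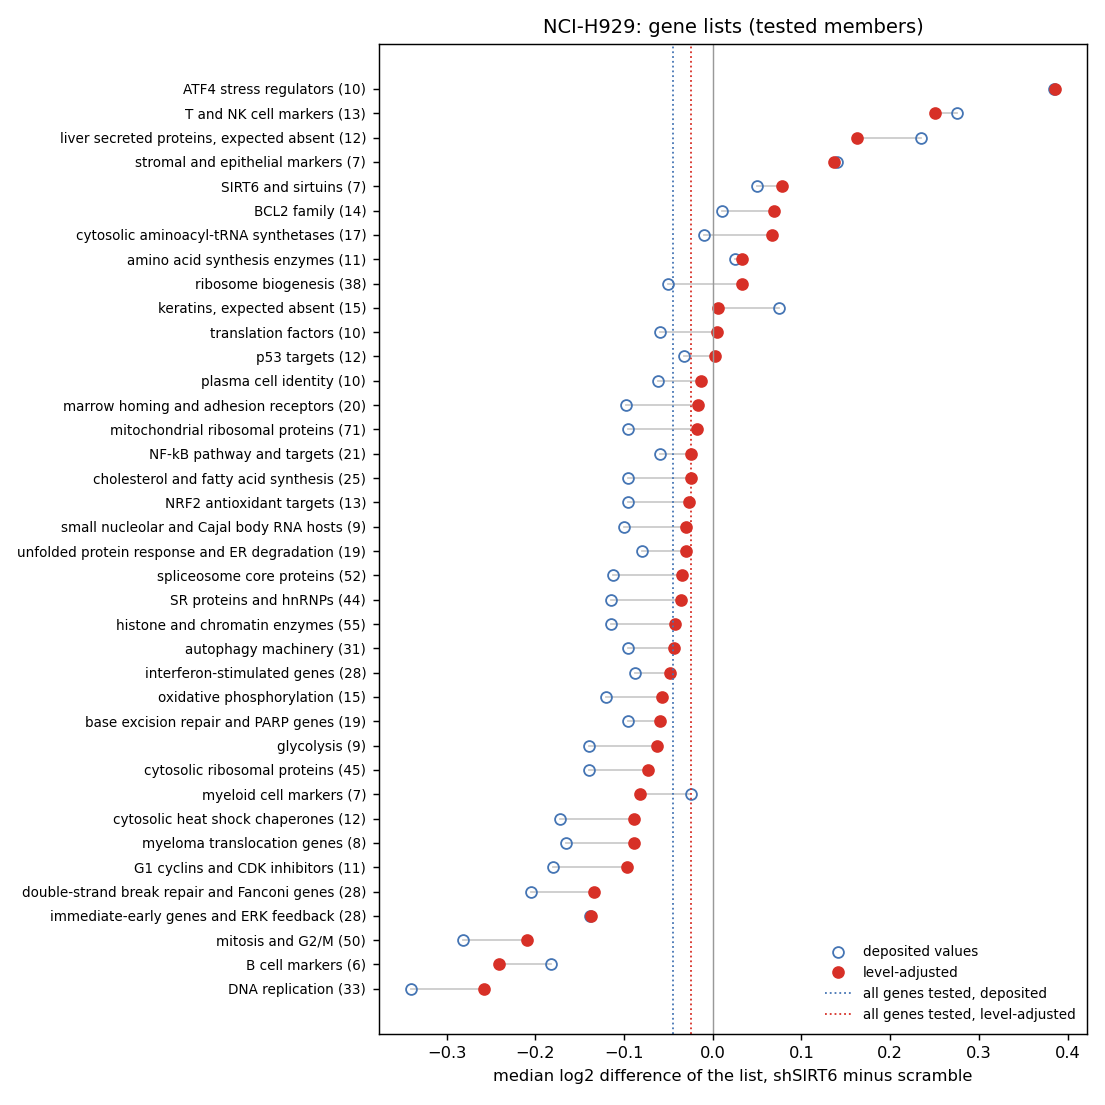
Median log2 difference, shSIRT6 minus scramble in NCI-H929, for each gene list with at least 6 tested members (number tested in brackets), on the deposited values (open) and after level adjustment (filled). Dotted lines mark the medians of all genes tested, −0.05 and −0.02. Replication (−0.34 and −0.26) and mitosis (−0.28 and −0.21) lie low on both scales, stress regulators at 0.39 on both, and the spliceosome core moves from −0.11 to −0.035.

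Lists of genes of other cell types and of tissues that should be silent here gave a scale for such medians at low levels. The 13 T and NK cell markers, of mean log2 level 4.84 at the median, had a median level-adjusted difference of 0.25 with 11 higher, and 12 liver genes had 0.16 with 9 higher. The B cell markers, 6 tested, stood at −0.24 with 5 lower. The keratins, 15 tested, stood at 0.006 with 8 higher and 7 lower. Myeloid markers, 7 tested, stood at −0.08 with 5 lower, and stromal and epithelial markers, 7 tested, at 0.14 with 5 higher. Medians of short lists of dim genes thus reached the size of those of the replication and mitosis lists, whose members are brighter and more numerous. No marker of these lists passed the test. With a variance trend CD68, a myeloid marker, passed on the deposited values alone, lower with shSIRT6. Among the T and NK markers CD4 read 3.79 and 3.94 with scramble and 4.53 and 4.30 with shSIRT6, and NKG7 4.98 and 4.76 against 5.47 and 5.05.

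Myeloma cells are known to feed bone loss through the chemokine CCL3 and its receptor CCR1. CCL3 read 8.79 and 8.70 with scramble and 8.10 and 8.11 with shSIRT6, a level-adjusted difference of −0.56 ± 0.10. CCR1 read 8.76 and 8.83 against 8.19 and 7.92 (−0.66 ± 0.12). Both passed with a variance trend on both scales, as did the near-identical copy CCL3L1 (−0.58 ± 0.10), whose probes may read CCL3 as well. Other chemokine and NF-kB genes stood on both sides: CCL4 stood at −0.36 ± 0.14 and RELB, a subunit of the alternative NF-kB pathway, at 0.38 ± 0.10. The survival gene BCL2A1 read 6.53 and 6.55 against 6.07 and 5.96 (−0.55 ± 0.10) and did not pass, while MCL1, on which myeloma cells depend, stood at −0.07 ± 0.09.

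Among enzymes of chromatin, 55 tested, the median was −0.04 after adjustment, with 35 lower. KDM4A, a demethylase of histone H3, stood at 0.42 ± 0.10 and KAT2B, an acetyltransferase, at −0.34 ± 0.09, and both passed with a variance trend after adjustment. SUV39H2, a methyltransferase of heterochromatin, stood at −0.39 ± 0.09 and passed so on the deposited values alone. Of the other sirtuins none (0) of 6 passed: SIRT7 stood at 0.30 ± 0.15, SIRT1 at 0.18 ± 0.09 and SIRT2 at −0.19 ± 0.12. The plasma cell list was little different between constructs, with a median of −0.01 over 10 tested genes; IRF4 stood at 0.12 ± 0.08 and SLAMF7, a surface target of myeloma therapy, at 0.21 ± 0.09.

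Genes outside these functions were named by a fixed rule on the lowest level-adjusted p. RGS16, which shuts off G protein signals, read 7.79 and 7.83 with scramble and 8.65 and 8.49 with shSIRT6, a level-adjusted difference of 0.84 ± 0.11. PLAGL2, a zinc finger factor, read 7.96 and 8.04 against 8.75 and 8.47 (0.69 ± 0.11). IGFBP6, a binding protein of insulin-like growth factors, stood at 0.61 ± 0.11. On the lower side TMEM169, a membrane protein, read 4.80 and 4.73 against 3.65 and 3.87 (−1.08 ± 0.12). DPYSL5 (−0.86 ± 0.12), CTCFL, the germline paralogue of CTCF (−0.83 ± 0.13), TOM1L1 (−0.74 ± 0.11), PLSCR1, a scramblase induced by interferon (−0.68 ± 0.10), L3MBTL3, a reader of methylated lysine (−0.57 ± 0.09) and the noncoding RNAs PRR7-AS1 (−0.87 ± 0.14) and LINC01260 (−0.73 ± 0.11) followed. PRR7-AS1 is antisense to PRR7. The remaining higher genes were the pseudogene CCDC144BP (1.31 ± 0.18), CCDC30 (0.65 ± 0.10), SULF1, a sulfatase of heparan sulfate (0.78 ± 0.12), and KRTAP5-3 (1.43 ± 0.21). In the last 2 both scramble arrays lay below the filter level of 3.045, at 2.94 and 2.89 for SULF1 and 2.90 and 2.30 for KRTAP5-3. The size of these differences thus rests on probes near background. KRTAP5-3, of mean level 3.19 over 8 arrays, passed the filter only through its NCI-H929 shSIRT6 arrays, at 4.16 and 4.04. Its rise is thus part of why it was tested. SULF1 passed the filter through MM1.S, at 7.38 to 8.39. None (0) of these genes passed without a variance trend on either scale. With one, RGS16, PLAGL2, TMEM169, DPYSL5, TOM1L1, PRR7-AS1, CCDC144BP, SULF1 and KRTAP5-3 passed on both scales.

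Among the 12734 named genes tested the widest difference belonged to LOC100287834, a locus known only by its number, at 10.33 and 8.58 with scramble and 11.05 and 11.30 with shSIRT6. Its difference of 1.72 ± 0.80 did not pass. The SE draws on all 8 arrays, and the 2 scramble arrays of NCI-H929 lay far apart. So did the MM1.S arrays, at 8.74 and 10.72 with scramble and 9.7 and 11.23 with shSIRT6.

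MicroRNA genes were read through rows of their hairpins; the mature arms were not measured. Of 586 tested, 312 were lower and 274 higher after level adjustment, with a median of −0.025. MIR424 read 6.86 and 6.94 with scramble and 6.15 and 6.23 with shSIRT6, a level-adjusted difference of −0.69 ± 0.10, and MIR548K 5.17 and 4.99 against 4.16 and 3.96 (−1.08 ± 0.16). MIR424 belongs to a family whose shared seed (bases 2 to 8) targets cell cycle messages. The family was picked out after the values were seen. In RefSeq 8 genes make a mature strand with this seed, and 7 were tested. Strands of 3 genes are shown with the seed in capitals, because 2 of their genes lie inside SMC4, a condensin gene of the mitosis list.
miR-424-5p: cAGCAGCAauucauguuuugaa
miR-15b-5p: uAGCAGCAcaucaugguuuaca
miR-16-5p: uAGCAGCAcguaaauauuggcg

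MIR16-2, at chr3:160404745-160404825 (GRCh38.p14), read 4.66 and 5.67 with scramble and 4.00 and 3.92 with shSIRT6, a level-adjusted difference of −1.23 ± 0.28. The scramble arrays lay far apart, and without scramble replicate 2 it was −0.73. MIR15B, at chr3:160404588-160404685, read 3.95 and 4.05 against 3.53 and 3.17 (−0.72 ± 0.20). Their host SMC4, at chr3:160399650-160434953, read 9.73 and 9.71 against 9.39 and 9.35 (−0.27 ± 0.09). Reads of the host's message by the hairpin probes cannot be told apart from the microRNA's own. The other members stood at −0.43 ± 0.21 (MIR15A), −0.39 ± 0.26 (MIR497), −0.10 ± 0.13 (MIR16-1) and 0.28 ± 0.13 (MIR195), so the family did not share a direction. Without scramble replicate 1 the level-adjusted value of MIR497 was −0.03, and without scramble replicate 2 that of MIR16-1 was 0.02. No member passed in the fit without a variance trend; with one, MIR424 and MIR16-2 passed on the deposited values, and MIR548K, outside the family, on both scales.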

How the data were processed

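The values are log2 levels per transcript cluster that the authors deposited; RMA, Transcriptome Analysis Console and genome build hg19 are named, with no versions or roles, in the submitters' processing notes. Of 48226 rows, 16098 carry 1 gene symbol in the platform annotation and 32128 none. Each of 14884 genes was represented by its brightest row on average (779 genes had several), and 12734 above the 30th percentile of all rows were tested. A linear model with a mean per line and construct was fitted to the 8 arrays with limma 3.58.1 (R 4.3.3); genes passed at a Benjamini-Hochberg adjusted p below 0.05. Level adjustment was cyclic loess over all rows and 8 arrays before the same fit. With 2 arrays per construct the smallest two-sided p of an exact permutation test is 0.333. The number of arrays limits the precision. Each ± value is an SE from limma.

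The comparison, the 40 gene lists and the tests were chosen with earlier results of these data known, and no list was tested as a set. Named genes are SIRT6, the genes that passed, the 12 higher and 12 lower genes with the lowest level-adjusted p among those whose arrays do not overlap on either scale, up to 4 members per list by the same p, and line markers; other genes were picked out after their values were seen. Listed genes without a named row were not analysed here; this held for all 11 amino acid transporters. Promoters and microRNAs came from RefSeq (GRCh38.p14). The fitting code was tested on simulated data. Alternatives changed the filter, row rule, variance model, normalization, block and arrays.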

Additional observations from a re-analysis of the deposited data

Results flagged for a closer look

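In 9 genes the hairpin's log2 difference in NCI-H929 departed from that in MM1.S by an interaction term (limma, adjusted p below 0.05). The interactions (NCI-H929 minus MM1.S) were 2.49 for DDIT3, 2.24 for SESN2, 2.16 for DDIT4, 2.15 for TRIB3, 2.11 for the pseudogene CCDC144BP, 1.80 for RGS16, 1.57 for SULF1, 1.43 for ASNS and −1.21 for CCND2. RGS16 differed by 0.76 in NCI-H929 and −1.04 in MM1.S, and CCDC144BP by 1.25 and −0.87. SULF1 was near background in the NCI-H929 scramble arrays. These 9 were among the 26 genes that passed and are the ones named in the report.

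Rows without a gene symbol were not part of the comparison by gene. When all 33745 rows above the filter were tested together, 26 unnamed rows passed in NCI-H929, 25 higher and 1 lower with shSIRT6, beside the 3 named genes. They hold 13 distinct sets of values, and 12 of the rows read the same values on every array. Row 17100957 had the widest difference, 2.79 ± 0.24 (SE; limma, adjusted p = 0.0213), from a mean log2 level of 5.86 to 8.64, with −0.49 in MM1.S. Row 16973281 differed by 1.93 ± 0.12 (SE; limma, adjusted p = 0.00877). The lower row, 16923543, differed by −1.39 ± 0.16 (SE; limma, adjusted p = 0.0466). After level adjustment 26 unnamed rows passed, all higher, 25 of them among those above; the lower row then had an adjusted p of 0.0567 in limma's test. With any 1 of the 4 NCI-H929 arrays left out none (0) of the rows passed, and the smallest adjusted p then ran from 0.0736 to 0.163. Which genes these rows read was not determined here.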

How the results depend on the processing

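The 3 calls on the deposited values became 0 without the filter on low levels, with the mean of a gene's rows, with the NCI-H929 arrays alone, with robust eBayes, with array weights, after quantile normalization, and after cyclic loess over the genes tested or over the NCI-H929 arrays; a stricter filter gave 3. With a variance trend they became 194. Without any 1 NCI-H929 array the count was 0 to 0. At an unadjusted p below 0.05 these zero counts stood beside 1184 to 1944 genes called in NCI-H929. With 1 array left out an arm keeps 1 sample, assumed to vary like the others. The level-adjusted count of 0 became 4 under the stricter filter and 68 with a variance trend, and was 0 under the 13 other alternatives.

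For the difference of the hairpin effect, NCI-H929 minus MM1.S, the deposited count of 26 became 430 with a variance trend and 32 under the stricter filter. For the difference of the hairpin effect, NCI-H929 minus MM1.S, level-adjusted, the count of 25 became 457 and 46. Both became 2 to 6 with 1 NCI-H929 array left out; these alternatives were chosen after the data were seen. The cause of these changes was not tested.

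Replicate numbers were not used as pairs in the main fits. Over genes, the difference between the scramble replicates was correlated with that between the shSIRT6 replicates, taken in the same order. On the deposited values this correlation was −0.00 (rounded) in NCI-H929 and 0.08 in MM1.S. It does not show whether arrays of the same number were processed together. With the replicate block 0 genes passed in NCI-H929 on either scale, and 0 passed the interaction test.

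SIRT6 kept its direction in every fit without passing, from −0.69 to −0.25 on the deposited values. The span of the trend with level was 0.18 to 0.245 over the 4 alternatives. The median of the replication list ran from −0.38 to −0.24 and that of the mitosis list from −0.32 to −0.19 over their 16 alternatives, with no change of sign (0); the level-adjusted medians ran from −0.29 to −0.21 and −0.23 to −0.19. The differences of DDIT3, SESN2 and CCND2 ran from 1.25 to 1.36, 0.96 to 1.13 and −1.16 to −0.64.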

Other observations

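Several genes outside the lists, picked out after their values were seen, passed in NCI-H929 with a variance trend on the level-adjusted values. The DNA damage and virus response gene SLFN11 read 6.87 and 6.96 with scramble and 6.40 and 5.93 with shSIRT6 (−0.67 ± 0.15), while its relative SLFN5 read 5.46 and 4.85 against 6.29 and 5.84 (0.97 ± 0.22). SOX2, a stem cell factor reported in myeloma cells, read 3.38 and 3.61 against 4.76 and 4.17 (1.01 ± 0.19). These scramble values lay below the median of all rows on their arrays (3.89 and 3.91), so the size of the SOX2 difference rests on dim probes. The mean level of SOX2 over 8 arrays, 6.08, was raised by MM1.S, at 7.92 to 8.41. DEPTOR, an mTOR inhibitor that myeloma cells express strongly, read 9.46 and 9.54 against 9.84 and 9.71 (0.35 ± 0.09). PIM1, a survival kinase, read 6.77 and 6.73 against 6.25 and 5.77 (−0.66 ± 0.15). MIR142, a microRNA gene of blood cells, read 7.40 and 7.70 against 6.82 and 6.85 (−0.65 ± 0.13). Without scramble replicate 2 the deposited difference of SLFN5 was 0.61 in place of 0.91, and without shSIRT6 replicate 2 the level-adjusted difference of PIM1 was −0.44. None (0) of these 6 passed in the fit without a variance trend.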
